A study of Mus musculus with 12 samples.

Results

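The genes described here encode 7SK RNA and the proteins that bind it: the RNA gene Rn7sk and the protein genes Larp7, Mepce, Hexim1, Cdk9, Ccnt1 and Ccnt2. They are 7 of the 29454 genes in the authors' deposited table of FPKM, a level per transcript length and library size. The group was chosen by its names and because Rn7sk was listed at 0 in each library of the CX3CL1-ct group, so the levels of Rn7sk below are a description and were not tested. The open question was whether the 6 protein genes differed between the same groups. All 7 genes passed the filter on low values, which asked for 1 FPKM or more in 3 or more of the 12 libraries. Rn7sk passed it only through the other 2 groups.

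RNA was sequenced from the hippocampus of C57/BL6 mouse pups after ribosomal RNA had been removed. WT pups, with neither transgene, gave 3 libraries. Another 3, named CAMK, are of littermates with CaMKIIα-tTA, in which the CaMKIIα promoter makes the tetracycline-controlled transactivator mainly in neurons of the forebrain. In the group named CX3CL1-ct, with 6 libraries, this driver was joined by Tg-CX3CL1-ct, which encodes the C-terminus of CX3CL1, a chemokine of neurons. The transgenic line had been crossed to C57BL/6J for 6 generations. CAMK and CX3CL1-ct share the driver, so the comparison of CX3CL1-ct with WT joins the driver and the transgene. The sample labels give postnatal day 4, while the design text of the series gives day 0. Sex, litter and batch are not in the labels, nor is it said there whether libraries are of different pups, so p-values measure the spread between these libraries only. In bulk RNA a lower value can mean fewer cells of a type or less RNA per cell, which cannot be told apart.

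7SK is an abundant nuclear RNA made by RNA polymerase III. Its role is to hold P-TEFb, the kinase CDK9 with cyclin T1 or T2, in an inactive state: MEPCE caps the 5′ end of the RNA, LARP7 binds the U-rich 3′ end and protects it, and HEXIM1 binds the 5′ hairpin and blocks the kinase. When P-TEFb is released it phosphorylates the pausing factors and the tail of RNA polymerase II, and paused transcription goes on. In neurons this release is known as a step in the rapid induction of activity-dependent genes.

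Rn7sk (ENSMUSG00000065037.1) lies on the minus strand of chromosome 9, at 78175303 to 78175633 in mm10, as a single exon of 331 bases. Its sequence in GENCODE M21 is shown since the copies described below match its 5′ part. The first line gives bases 1 to 300 (chr9:78175334-78175633, minus strand), with each GATC in capitals, the DNA letters of the GAUC repeats that HEXIM1 is known to bind. The next line gives the 3′ end from base 272 to 331 (chr9:78175303-78175362, minus strand), with the T-rich tail in capitals.
Rn7sk: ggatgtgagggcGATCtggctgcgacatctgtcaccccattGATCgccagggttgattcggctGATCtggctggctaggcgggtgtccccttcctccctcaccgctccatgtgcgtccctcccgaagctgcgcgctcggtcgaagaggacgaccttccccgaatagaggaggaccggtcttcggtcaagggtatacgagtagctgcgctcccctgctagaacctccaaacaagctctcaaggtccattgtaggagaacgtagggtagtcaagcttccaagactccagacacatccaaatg
Rn7sk 3′ end: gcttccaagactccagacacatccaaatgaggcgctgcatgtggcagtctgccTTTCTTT
The search for GATC, which reads the same on both strands, found it at bases 13, 42 and 64, counted from the 5′ end. Of 53054 annotated genes of at least 100 bases, 0.309% held as many in their first 100 bases. This match is of letters only.

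In WT the deposited FPKM of Rn7sk was 86660, 85042 and 85412. In CAMK it was 90862, 68040 and 81090. In CX3CL1-ct each of the 6 libraries had it at 0, so the groups stood fully apart, while CAMK and WT overlapped. The mean of the 6 CAMK and WT libraries was 82851 ± 7906 FPKM (SD, n = 6). Rn7sk was the gene with the highest FPKM in 2 of these 6 libraries, and in the others it came after Rny3, a Y RNA gene of the Ro ribonucleoprotein. No fold was computed, since an exact 0 in a table without counts can also be a failed estimate.

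A gene this abundant weighs on the sum of the table. Rn7sk made up 13.9 to 14.4% of the FPKM sum in WT and 11.0 to 14.0% in CAMK. Small RNA genes of all kinds held 49.8 ± 1.62% of the sum in WT (SD, n = 3), 51.6 ± 0.704% in CAMK (SD, n = 3) and 44.9 ± 1.55% in CX3CL1-ct (SD, n = 6). With Rn7sk left out of both sums, the share was 41.5 ± 2.00% in WT and 44.8 ± 1.64% in CAMK. The CX3CL1-ct libraries, from 42.1 to 46.6%, then overlapped both CAMK (42.9 to 45.8%) and WT (39.4 to 43.3%). Without Rn7sk the CX3CL1-ct mean was close to that of CAMK and above that of WT, where the overlap rests on CX3CL1-ct replicate 4 (42.1%).

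**Figure D1:**
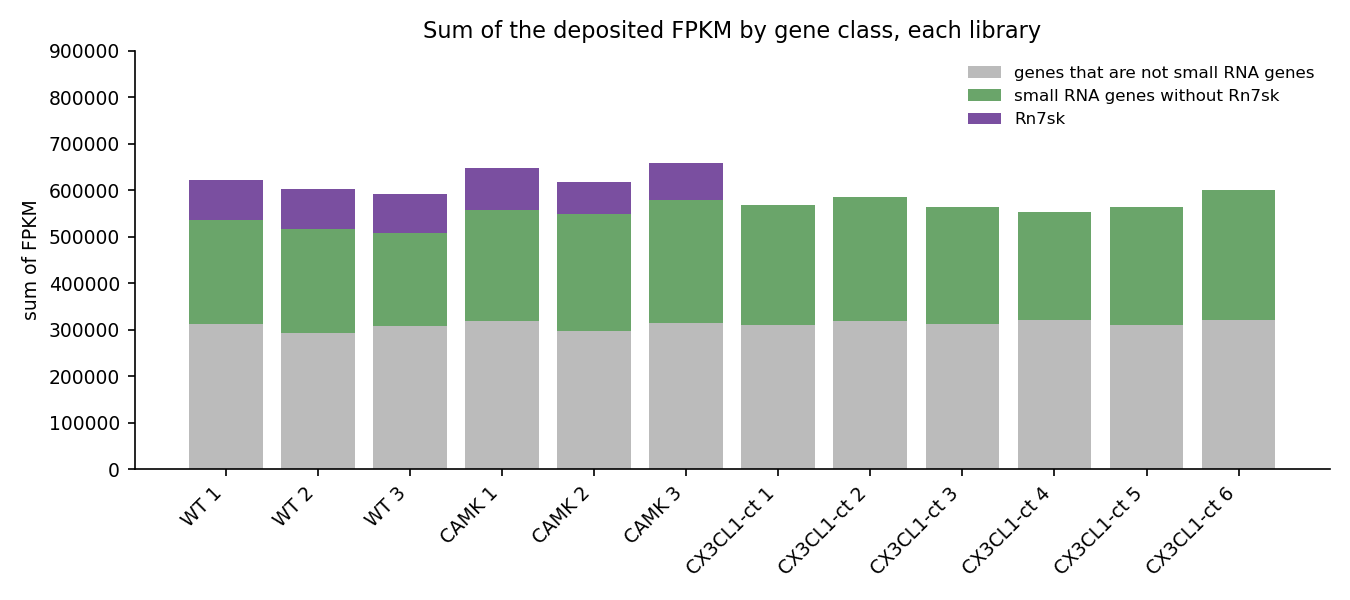
Sum of the deposited FPKM (vertical axis) for each of the 12 libraries, split into Rn7sk, other small RNA genes and all remaining genes. The top segment, Rn7sk, is present in the 6 WT and CAMK libraries and missing in the 6 CX3CL1-ct libraries, while the segment of other small RNA genes is lower in WT (199638 to 224218 FPKM) than in CAMK (238637 to 263594) and CX3CL1-ct (232583 to 280077).

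Taking the full length of 331 bases, the FPKM of Rn7sk correspond to 2.25 to 3.01% of the fragments of a WT or CAMK library. If this share were left out of a library's total, all other genes would be listed higher by 0.03 to 0.04 on the log2 scale. Both would be smaller if a shorter length had been used to set the FPKM. The median log2 difference over the 16503 genes tested was 0.04 between CX3CL1-ct and CAMK and 0.04 between CX3CL1-ct and WT, and 0.00 between CAMK and WT. How the totals were set is not given in the sources used here, and the part of Rn7sk in this shift was not tested.

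The mouse genome holds many copies of 7SK, so the annotated copies were searched for, after the values of Rn7sk had been seen. In GENCODE M21, 30 other genes matched Rn7sk by at least 80% over at least 200 bases, and 15 of them are in the table. Most matches end near base 241 of Rn7sk. The copy with the closest match, Gm24447 (chromosome 15, 93234363 to 93234700, plus strand), is 100% identical to bases 1 to 241. Gm26315 (chromosome 2, 7076094 to 7076414, minus strand) lies inside Celf2 and has 238 of the first 242 bases in common with Rn7sk, the changes being G1T, A3G, T4C and A240T, with the base of Rn7sk first and positions counted from its 5′ end. Bases 221 to 280 of the 3 genes are shown because the identity ends there: chr9:78175354-78175413 (minus strand), chr15:93234583-93234642 (plus) and chr2:7076135-7076194 (minus). Capitals mark bases that differ from Rn7sk at the same position, with no gaps allowed.
Rn7sk window: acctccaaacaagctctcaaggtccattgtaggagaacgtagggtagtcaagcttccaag
Gm24447 window: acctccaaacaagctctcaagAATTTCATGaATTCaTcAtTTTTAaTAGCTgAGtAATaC
Gm26315 window: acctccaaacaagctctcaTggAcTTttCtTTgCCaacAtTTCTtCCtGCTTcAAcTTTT
The first difference falls at base 242 in Gm24447 and at base 240 in Gm26315, and the windows differ from Rn7sk at 31 and 26 of the 60 bases.

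Gm24447 was listed at 13.3, 9.11 and 12.0 FPKM in WT and at 14.3, 10.5 and 11.5 in CAMK. In the 6 CX3CL1-ct libraries it ran from 12.1 to 24.4 FPKM, with 3 of them above all CAMK and WT libraries. The log2 difference was 0.34 (SE 0.20, adjusted p = 0.812 by limma with Benjamini-Hochberg adjustment) between CX3CL1-ct and CAMK, and 0.41 (SE 0.20, adjusted p = 0.426 by limma) for CX3CL1-ct less WT. So a gene with the same 241 bases as Rn7sk was listed above 0 in each library in which Rn7sk was listed at 0. Reads from near-identical copies can be split or moved between them by the counting, so the value of each copy is uncertain.

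Gm26315 behaved otherwise, with 8.95, 6.49 and 8.10 FPKM in WT, 9.47, 3.65 and 5.84 in CAMK and 0 in all 6 CX3CL1-ct libraries. Of the 15 copies, it alone was at 0 throughout CX3CL1-ct and above 0 in all other libraries. The lowest value above 0 of any copy in a CX3CL1-ct library was 0.346 FPKM, for Gm24893. Gm26035, on chromosome X and 96.1% identical over 229 bases, ran from 5.39 to 10.6 FPKM in WT and CAMK and from 9.07 to 24.9 in CX3CL1-ct, where 4 of 6 libraries lay above all others. Its log2 difference was 0.82 (SE 0.29, adjusted p = 0.725 by limma) against CAMK and 0.89 (SE 0.29, adjusted p = 0.239) against WT, so neither passed the threshold. Gm24146, on chromosome 5 and 97.5% identical, ran from 5.59 to 10.4 FPKM in WT and CAMK and from 4.76 to 17.2 in CX3CL1-ct. Gm22058 ran from 2.77 to 7.29 FPKM in CX3CL1-ct and from 2.97 to 8.85 in the others, and Gm23037 from 0.869 to 2.45 and from 1.74 to 2.32, so in both genes the groups overlapped. The 14 copies other than Gm26315 together were listed at 31.3 to 41.8 FPKM in WT, 36.8 to 42.1 in CAMK and 37.8 to 82.7 in CX3CL1-ct. These sums are far below the level of Rn7sk in any WT or CAMK library.

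**Figure D2:**
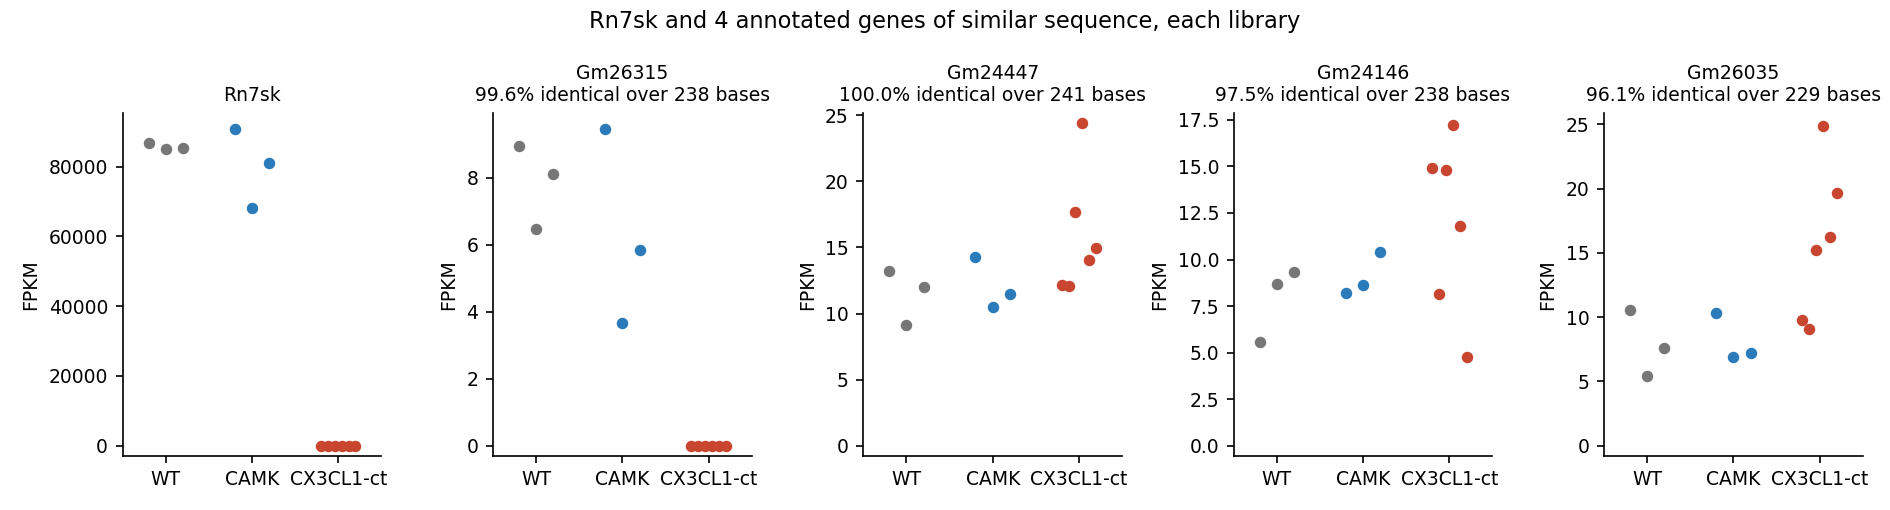
FPKM (vertical axes, each from 0 and of its own scale) of Rn7sk and 4 annotated genes of similar sequence, with 1 point per library in WT, CAMK and CX3CL1-ct. Rn7sk and Gm26315 lie at 0 in all 6 CX3CL1-ct libraries, while Gm24447, Gm24146 and Gm26035 lie above 0 in all 12 libraries.

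Rn7sk was 1 of 6 genes listed at 0 in all 6 CX3CL1-ct libraries and at 1 FPKM or more in all others; 0 genes were at 0 in such a way throughout WT or throughout CAMK. The others were Celf2, an RNA-binding protein of the CELF family that regulates splicing (90.9 to 103 FPKM in WT and CAMK), Rn7s6, annotated as a 7S RNA gene (31.6 to 56.6 FPKM), Gm10115 (9.35 to 12.7 FPKM), Gm10855 (8.31 to 11.7 FPKM) and Gm26315. These 6 genes have 3 locus fields in the deposited table. Celf2, Gm10115, Gm10855 and Gm26315 share a single field, chromosome 2 from 6539694 to 7396000, and the other 2 genes of that field, Gm13389 and Gm37340, were at 0 in CX3CL1-ct and at no more than 0.154 FPKM elsewhere. Rn7sk, on chromosome 9, and Rn7s6, on chromosome 6 at 69516339 to 69516629, each have a field of their own.

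The genes whose log2(FPKM + 1) was most like that of Rn7sk over the 12 libraries were the same 5. Pearson's r was 0.9998 for Celf2, 0.9986 for Gm10115, 0.9983 for Gm10855, 0.9975 for Rn7s6 and 0.984 for Gm26315. These points share the step from the libraries at 0 to the others, which sets r. The next gene, Nxpe3, had r of 0.840, and its levels were 0.994 to 1.23 FPKM in CX3CL1-ct and 1.22 to 1.39 in the others, so they overlapped.

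The 5 tested neighbours of Rn7sk were above 0 in every library. On the side of higher coordinates, C920006O11Rik, a long noncoding RNA gene on the opposite strand that starts 281 bases away, ran from 0.706 to 1.51 FPKM in WT, from 1.32 to 2.12 in CAMK and from 0.879 to 1.90 in CX3CL1-ct. Gsta4, a glutathione transferase gene 7141 bases away, ran from 7.79 to 11.9 FPKM in WT, from 6.37 to 7.27 in CAMK and from 7.11 to 11.5 in CX3CL1-ct. Its log2 difference was 0.43 (SE 0.15, adjusted p = 0.725 by limma) between CX3CL1-ct and CAMK and -0.01 (SE 0.15) between CX3CL1-ct and WT. On the other side, Ick, a protein kinase gene, ends 3196 bases away and differed by -0.10 and 0.12, Fbxo9, of the F-box family, by -0.03 and 0.12, and Elovl5, a fatty acid elongase, by 0.14 and -0.01 against CAMK and WT. Dppa5a was below the filter, with 0 to 0.174 FPKM in WT, 0.637 to 1.31 in CAMK and 0.132 to 1.93 in CX3CL1-ct. None of these 5 tested neighbours passed the threshold in either comparison.

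The 6 protein genes were of moderate level and none was at 0 in any library. Over the 12 libraries the mean FPKM was 16.6 ± 1.40 for Ccnt2, 16.0 ± 1.52 for Cdk9, 14.2 ± 0.805 for Ccnt1, 8.96 ± 0.735 for Mepce, 8.23 ± 0.834 for Hexim1 and 6.64 ± 0.715 for Larp7 (SD, n = 12). The kinase and its cyclins were thus listed above the RNA-binding proteins and the inhibitor. Neighbours in this order overlapped, except Ccnt1 and Mepce, where the lowest value of Ccnt1 (12.8 FPKM) was above the highest of Mepce (10.0 FPKM). Ccnt2 was above Cdk9 in 6 of 12 libraries only, so the order of these genes was not set. Of the 16503 genes tested, 44.5% had a lower mean than Larp7 and 71.7% a lower mean than Ccnt2.

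**Figure D3:**
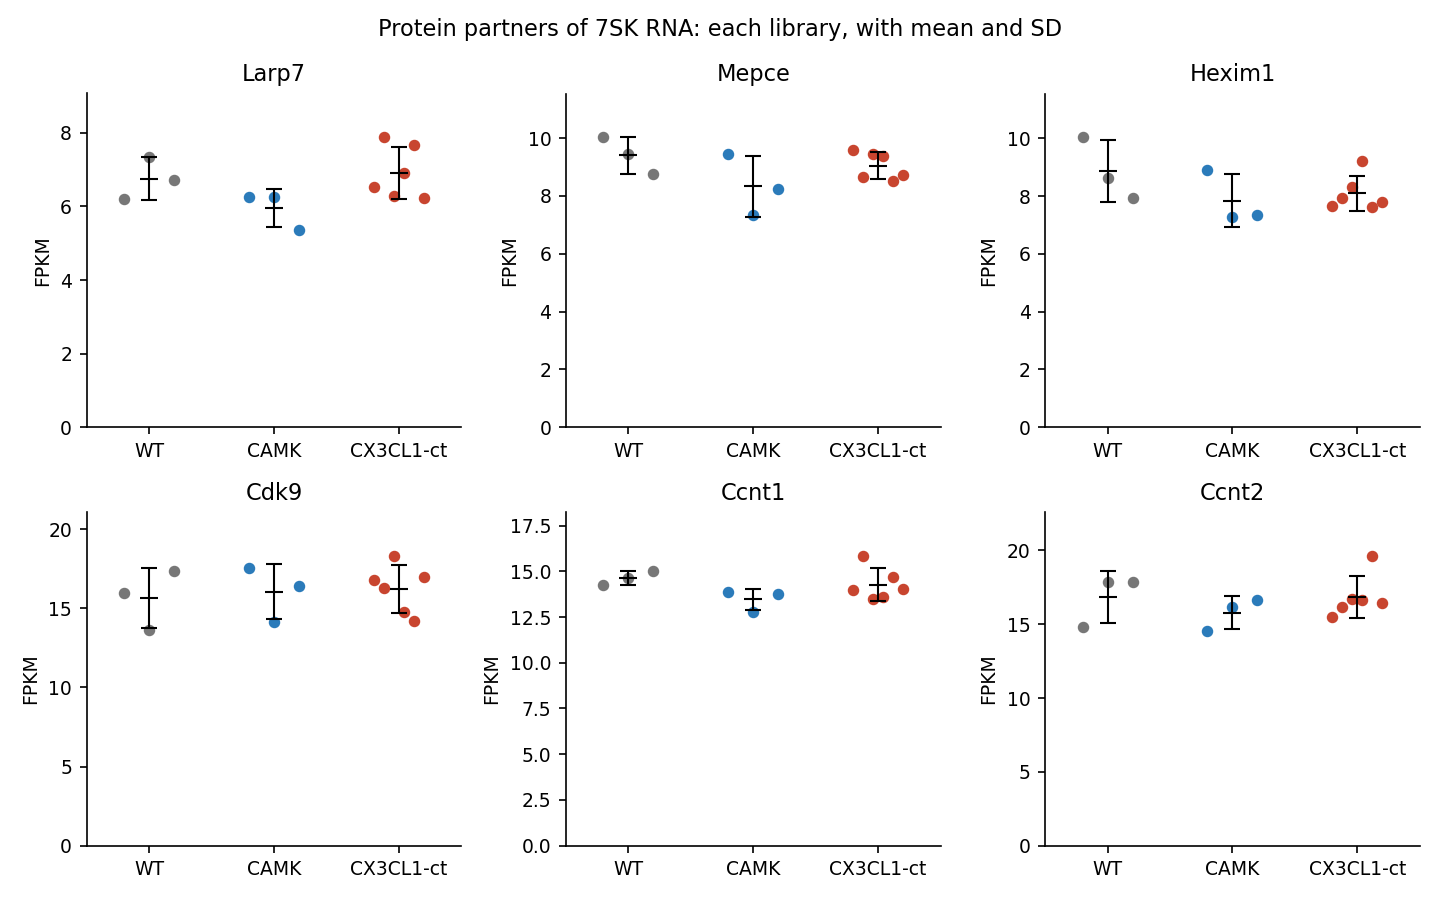
FPKM (vertical axes from 0) of the 6 protein genes in each library of WT, CAMK and CX3CL1-ct, with the group mean and SD as bars. The CX3CL1-ct points overlap the WT and CAMK points in all 6 genes, and Ccnt1 in CAMK lies below Ccnt1 in WT.

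Larp7 (chromosome 3, 127536714 to 127553349, minus strand), the protein that stays bound to 7SK and protects its 3′ end, was at 6.20, 7.35 and 6.73 FPKM in WT and at 6.26, 6.26 and 5.36 in CAMK. In CX3CL1-ct it ran from 6.24 to 7.89 FPKM, with a median of 6.72. Of the 6 CX3CL1-ct libraries, 5 lay above all CAMK libraries, while CX3CL1-ct and WT overlapped. The log2 difference between CX3CL1-ct and CAMK was 0.18 (95% interval -0.01 to 0.37), which is 1.14-fold in FPKM + 1 with an interval from 0.995 to 1.30. By limma its p was 0.0573 before and 0.775 after adjustment. Against WT the difference was 0.03 (-0.16 to 0.22).

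Mepce (chromosome 5, 137781906 to 137787655, minus strand), the methyltransferase that caps 7SK, was at 10.0, 9.44 and 8.75 FPKM in WT and at 9.45, 7.34 and 8.23 in CAMK. In CX3CL1-ct it ran from 8.52 to 9.58 FPKM, with a median of 9.05. All 3 groups overlapped. CX3CL1-ct differed by 0.11 (-0.06 to 0.28) on the log2 scale against CAMK and -0.05 (-0.22 to 0.11) against WT.

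Hexim1 (chromosome 11, 103116231 to 103119725, plus strand), the inhibitor of the kinase when bound to 7SK, was at 10.0, 8.64 and 7.93 FPKM in WT and at 8.91, 7.27 and 7.36 in CAMK. In CX3CL1-ct it ran from 7.61 to 9.22 FPKM, with a median of 7.87. Of the 6 CX3CL1-ct libraries, 3 lay below all WT libraries and 1 above all CAMK libraries. On the log2 scale the difference was 0.04 (-0.15 to 0.23) against CAMK and -0.12 (-0.31 to 0.08) against WT.

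Cdk9 (chromosome 2, 32705784 to 32713076, minus strand), the kinase of P-TEFb, was at 16.0, 13.6 and 17.4 FPKM in WT and at 17.5, 14.2 and 16.4 in CAMK. In CX3CL1-ct it ran from 14.2 to 18.3 FPKM, with a median of 16.5. The groups overlapped almost fully. CX3CL1-ct differed on the log2 scale by 0.02 (-0.19 to 0.23) against CAMK and 0.05 (-0.16 to 0.26) against WT. Exons of Cdk9 also hold the microRNA genes Mir2861 and Mir3960, on the same strand, which are not in the table.

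Ccnt1 (chromosome 15, 98538689 to 98570923, minus strand), which encodes cyclin T1, was at 14.3, 14.7 and 15.0 FPKM in WT and at 13.8, 12.8 and 13.8 in CAMK. In CX3CL1-ct it ran from 13.5 to 15.9 FPKM, with a median of 14.0. All 3 CAMK libraries lay below all 3 WT libraries, and CX3CL1-ct overlapped both groups, with a log2 difference of 0.08 (-0.05 to 0.21) against CAMK and -0.04 (-0.16 to 0.09) against WT. Its exons overlap those of the antisense gene 9330020H09Rik over 695 bases, and that gene had group means of 1.19 to 1.26 FPKM. The use of strand in counting is not given in the sources used here, so these reads cannot be told apart.

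Ccnt2 (chromosome 1, 127774164 to 127808061, plus strand), which encodes cyclin T2, was at 14.8, 17.9 and 17.9 FPKM in WT and at 14.5, 16.2 and 16.6 in CAMK. In CX3CL1-ct it ran from 15.5 to 19.6 FPKM, with a median of 16.5. The highest value stood apart from the other 5, and all groups overlapped. On the log2 scale CX3CL1-ct differed by 0.09 (-0.09 to 0.27) against CAMK and 0.00 (-0.18 to 0.18) against WT.

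Over the 6 protein genes, 0 passed the limma threshold (adjusted p at or under 0.05) between CX3CL1-ct and CAMK, and 0 had an unadjusted p under 0.05. Over all genes tested 0.0606% passed, that is 10, of which 9 have a whole group listed at 0. Adjusted p ranged from 0.775 for Larp7 to 0.991 for Cdk9. All 6 differences were positive, with a median of 0.08, beside a median of 0.04 and 63.2% positive over all genes tested. With median-of-ratios scaling or scaling to genes that are not small RNA genes, Cdk9 turned negative and 5 of 6 were positive. In 0 of the 6 genes did the 2 groups' values not overlap, against 3.30% of all genes. The widest interval, that of Cdk9, ran from 0.874-fold to 1.17-fold, and the highest upper bound was 1.30-fold for Larp7, as folds of FPKM + 1.

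Between CX3CL1-ct and WT, 0 of the 6 protein genes passed the limma threshold and 0 had an unadjusted p under 0.05, beside 0.454% of all genes tested. Adjusted p ranged from 0.616 for Hexim1 to 0.992 for Ccnt2. The differences were positive in 3 and negative in 3 genes, with a median of -0.02, beside 0.04 over all genes. Larp7 and Ccnt2 turned negative under either other scaling, which left only Cdk9 positive. The 2 groups' values overlapped in all 6 genes, and 6.04% of all genes had no overlap. Intervals ran at most from 0.808-fold (Hexim1) to 1.20-fold (Cdk9), as folds of FPKM + 1.

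Between CAMK and WT, which differ by the driver, 0 of 6 passed and 0 had an unadjusted p under 0.05, beside 0.358% of all genes tested. With the replicate number as a block, 490 genes in place of 59 passed over the whole table, and still 0 of the 6. The log2 difference was -0.16 for Larp7 (-0.38 to 0.06), Hexim1 (-0.38 to 0.06) and Mepce (-0.35 to 0.03), -0.11 for Ccnt1 (-0.26 to 0.04), -0.08 for Ccnt2 (-0.29 to 0.12) and 0.04 for Cdk9 (-0.21 to 0.28). Adjusted p ranged from 0.501 for Mepce to 0.937 for Cdk9. Thus 5 of the 6 differences were negative, beside 50.5% positive over all genes. The groups did not overlap in 1 of the 6, Ccnt1, which is near the background of 18.0% of all genes. The comparisons of CX3CL1-ct with CAMK and of CAMK with WT share the CAMK libraries, so their opposite signs are not separate observations.

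**Figure D4:**
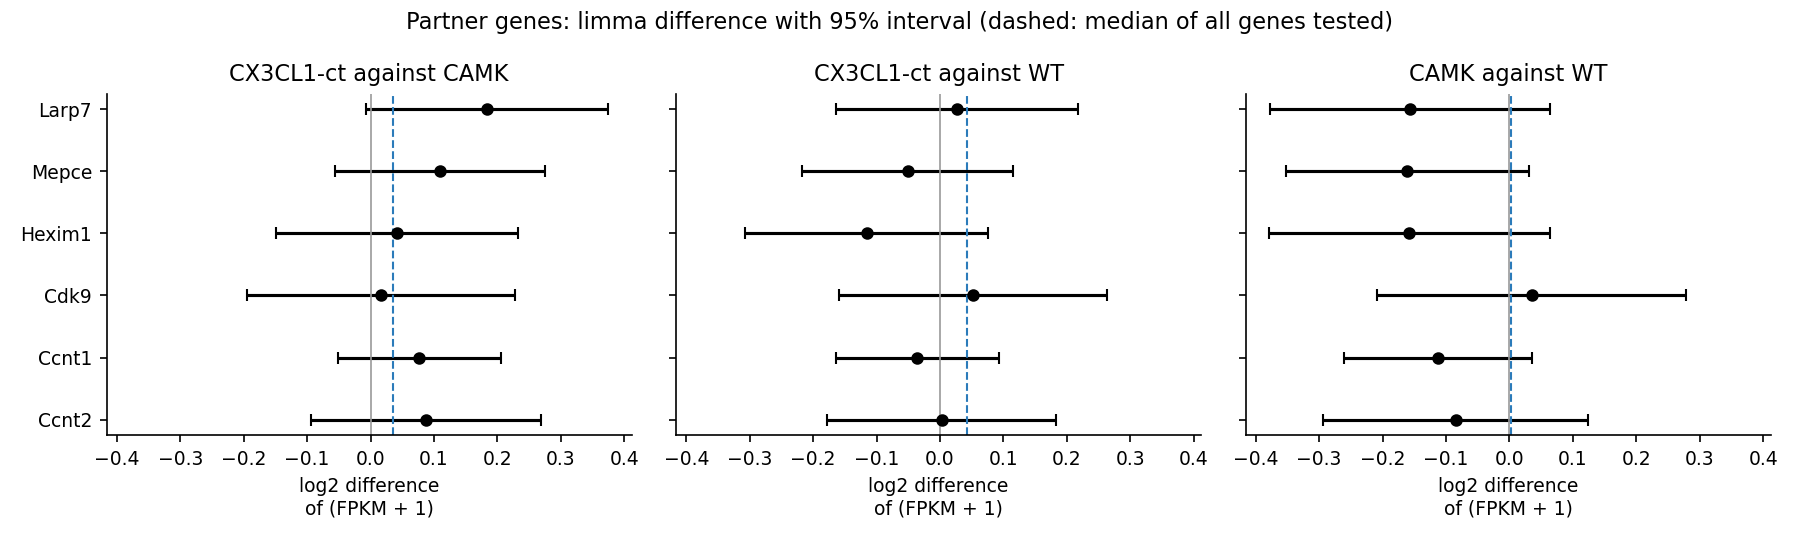
Difference in log2(FPKM + 1) (horizontal axes) of the 6 protein genes in the 3 comparisons, with 95% intervals from limma; the dashed line is the median of all genes tested. Each interval includes 0; that of Larp7 between CX3CL1-ct and CAMK runs from -0.01 to 0.37.

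The genes around P-TEFb were taken as 9 lists, to be read beside the 63.2% of all genes tested that were higher in CX3CL1-ct than in CAMK and the 62.7% that were higher than in WT. Per list 0 to 2 genes had an unadjusted limma p under 0.05 between CX3CL1-ct and CAMK, and 0 to 5 between CX3CL1-ct and WT. The 5 were among the 11 other structural RNAs and included Rn7s6, which is at 0 throughout CX3CL1-ct. Over all genes these were 1051 and 2029 of 16503. Values without further note are from the fit without the replicate block. The CAMK and WT numbers were taken as pairs from the data only, and values with the block are given where they change a call between these groups. That fit held all 12 libraries, but CX3CL1-ct replicates 4 to 6 were each alone in a block. They therefore added nothing to the differences or the spread, and CX3CL1-ct values with the block rest on replicates 1 to 3. These 3 libraries, which the check of pairing did not pair, shared the blocks of CAMK and WT and the estimate of the spread. With the block, 490 of the 16503 genes passed between CAMK and WT. Among the list genes this was 2 of 9 in the super elongation complex, 1 of 13 among factors that recruit or free P-TEFb, and 0 in each other list. The super elongation complex carries active P-TEFb, and 9 of its 11 genes were tested. Of these, 6 were higher in CX3CL1-ct than in CAMK and 6 higher than in WT, with a median of 0.04 in both, and 0 passed; scaled to genes that are not small RNA genes, 4 of 9 were higher than in WT. Eaf1, which binds the ELL subunits, had 5.52 ± 0.0474 FPKM (SD) in WT, 4.07 ± 0.427 in CAMK and 4.91 ± 0.372 FPKM in CX3CL1-ct. Its difference between CAMK and WT, -0.37, had an adjusted p of 0.0964 by limma, and of 0.0531 with the replicate block. Of the scaffold genes, Aff3 had means of 12.7, 16.0 and 16.5 FPKM in these groups, in that order, and Aff2 4.12, 6.12 and 5.64. Neither passed without the replicate block; with it both passed between CAMK and WT, Aff3 with a difference of 0.31 (adjusted p = 0.0493 by limma) and Aff2 with 0.47 (adjusted p = 0.0495).

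Factors that recruit P-TEFb or free it from 7SK gave 9 of 13 positive differences against CAMK and 11 of 13 against WT, with medians of 0.09 and 0.06 and 0 past the threshold. Median-of-ratios scaling gave 8 of 13 and 9 of 13, with medians of 0.04 and 0.02, and scaling to genes that are not small RNA genes 9 of 13 and 8 of 13, with medians of 0.07 and 0.01. Ddx21, an RNA helicase that frees P-TEFb from 7SK, had 13.3 ± 0.123 FPKM in WT, 10.7 ± 0.106 in CAMK and 11.6 ± 1.06 FPKM in CX3CL1-ct (SD). Its CAMK libraries lay below all WT libraries, with a difference of -0.29 (adjusted p = 0.172 by limma, and 0.0400 with the replicate block, which passes). Over all genes tested, 18.0% did not overlap between CAMK and WT, and 490 of 16503 passed with the block. Snw1, a splicing cofactor, differed by 0.19 between CX3CL1-ct and CAMK (adjusted p = 0.725), and Brd3, a bromodomain protein, by 0.18 between CX3CL1-ct and WT (adjusted p = 0.241).

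The pausing and elongation factors, on which P-TEFb acts or which travel with the polymerase, gave 13 of 15 positive differences against CAMK (median 0.06) and 12 of 15 against WT (median 0.09), and again 0 passed. With median-of-ratios scaling these were 9 of 15 (median 0.01) and 12 of 15 (median 0.05), and scaled to genes that are not small RNA genes 11 of 15 (median 0.03) and 12 of 15 (median 0.04). Nelfb, a subunit of the pausing factor NELF, had means of 11.2 FPKM in WT, 13.0 in CAMK and 13.2 FPKM in CX3CL1-ct. Ctr9 and Rtf1, of the PAF complex, differed by 0.14 and 0.15 between CX3CL1-ct and WT, with adjusted p of 0.304 and 0.343 by limma. The other kinases and phosphatases of RNA polymerase II gave 6 of 12 and 7 of 12 positive, with medians of 0.01 and 0.03 that turned negative under both other scalings, and 0 passed. There Cdk12 and Cdk13, kinases of the polymerase tail, differed by 0.10 and 0.11 between CX3CL1-ct and CAMK, and the phosphatase Ssu72 by 0.19 between CX3CL1-ct and WT (adjusted p = 0.356).

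Other proteins that bind 7SK, among them the hnRNP proteins that take it up when P-TEFb is released, gave 4 of 7 positive differences against CAMK and 3 of 7 against WT, with medians of 0.03, which turned negative with median-of-ratios scaling, and -0.00, and 0 passed. Hnrnpa2b1 had means of 162, 156 and 153 FPKM in WT, CAMK and CX3CL1-ct, Syncrip 44.5, 45.7 and 47.2, and Rbm7, of the nuclear exosome targeting complex, 19.5, 18.4 and 19.1. The machinery of RNA polymerase III at promoters of the 7SK type was present in all 3 groups. Of its 21 genes, 13 were higher in CX3CL1-ct than in CAMK and 16 higher than in WT (medians 0.03 and 0.07), and 0 passed. With median-of-ratios scaling these were 10 of 21 and 13 of 21 (medians -0.01 and 0.03). Scaled to genes that are not small RNA genes, they were 12 of 21 and 13 of 21 (medians 0.01 and 0.03). Polr3d, a subunit of the polymerase, had means of 7.65, 9.09 and 8.77 FPKM in WT, CAMK and CX3CL1-ct. Snapc3 and Snapc5, of the complex that binds these promoters, had 16.9, 17.1 and 19.2 FPKM, and 9.97, 11.5 and 11.5.

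Larp7 also guides the modification of U6 RNA, and the genes of U6 processing gave 9 of 13 and 10 of 13 positive differences, with medians of 0.05 and 0.04 and 0 past the threshold; scaled to genes that are not small RNA genes, 5 of 13 were higher than in WT. Lsm2, of the ring on the 3′ end of U6, had means of 4.86, 6.61 and 6.41 FPKM in WT, CAMK and CX3CL1-ct, Lsm8 of the same ring 33.9, 29.8 and 32.8, and Sart3, which recycles U6, 8.31, 7.88 and 8.61. The table holds 12 other structural RNAs of the list, of which 11 were tested. Rn7s6, at 0 in CX3CL1-ct as described, passed the filter on low values only through WT and CAMK, so its limma call is not read as a result. None of the others passed. The rest included Rnu3a, the U3 RNA of ribosome production, with 539 ± 53.8, 377 ± 40.4 and 464 ± 42.6 FPKM (SD), and a difference between CAMK and WT of -0.52 (adjusted p = 0.0837 by limma, and 0.0655 with the replicate block). Rnu12, the U12 RNA of the minor spliceosome, had means of 1222, 1579 and 1596 FPKM.

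Rapid-response genes, whose induction needs the release of paused polymerase, were the list with the median farthest from 0 between CX3CL1-ct and CAMK and between CAMK and WT. Of 14 genes, Fosb and Egr2 were below the filter. The other 12 all had a higher mean in CX3CL1-ct than in CAMK (median 0.15; 10 of 12 with median-of-ratios scaling), but 9 of 12 were lower in CX3CL1-ct than in WT (median -0.10) and 10 of 12 lower in CAMK than in WT (median -0.25), and 0 passed in any comparison, with or without the replicate block. Arc, a synaptic activity gene, had 3.75 ± 0.996 FPKM in WT, 1.96 ± 0.351 in CAMK and 2.69 ± 0.398 FPKM in CX3CL1-ct (SD), and its difference of -0.67 between CAMK and WT had an adjusted p of 0.123 by limma, and of 0.0960 with the replicate block. Junb, a subunit of AP-1, had 7.26 ± 1.06, 5.11 ± 1.61 and 5.93 ± 0.590 FPKM. Mcl1, a survival gene, had 45.9 ± 0.250, 44.9 ± 3.20 and 49.9 ± 2.64 FPKM, with its highest mean in CX3CL1-ct.

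**Figure D5:**
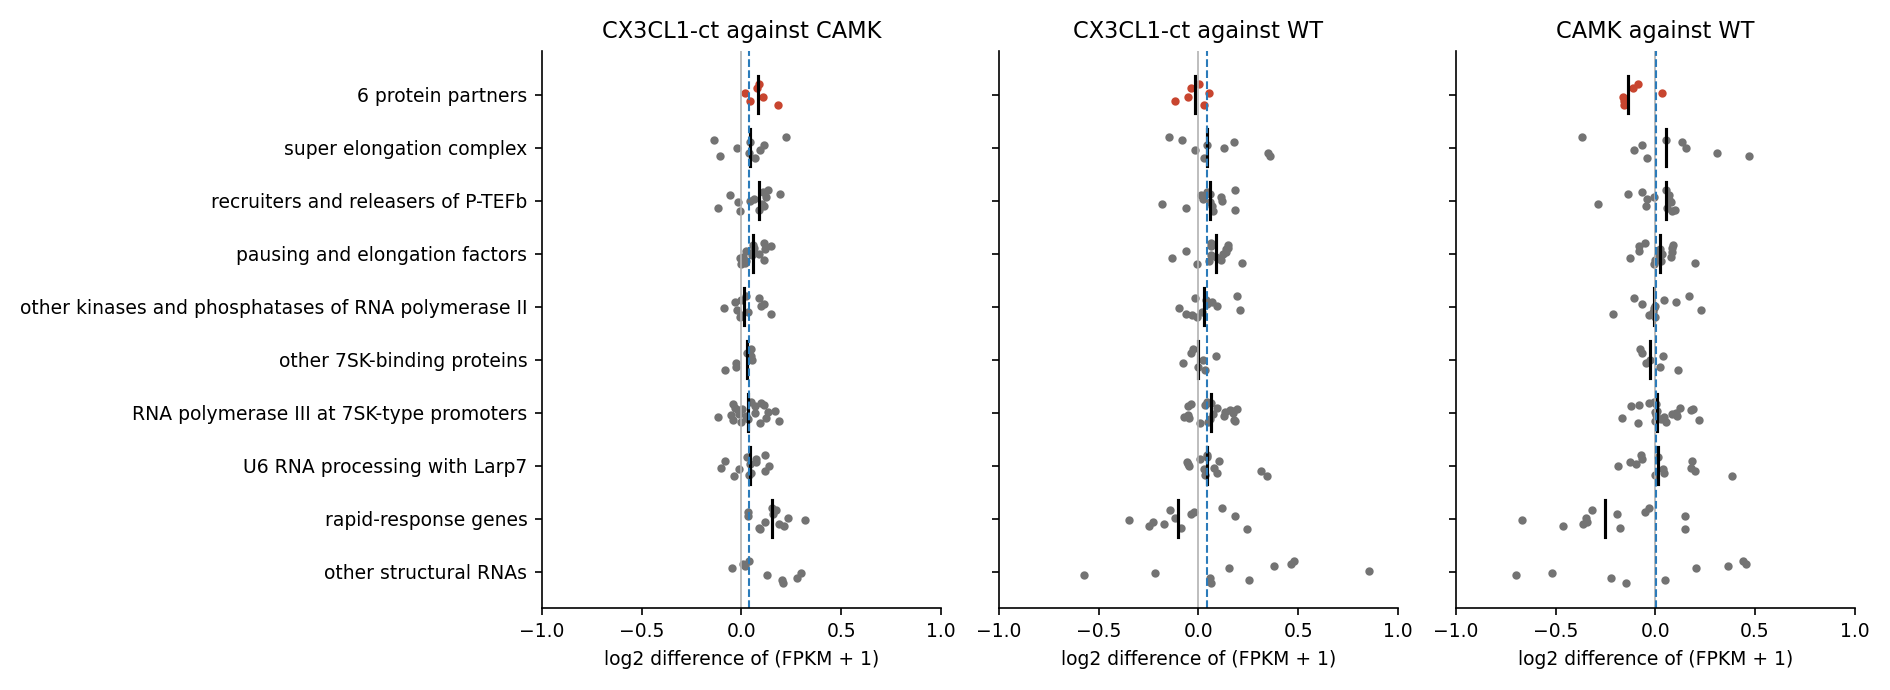
Difference in log2(FPKM + 1) (horizontal axes) of each tested gene in the 6 protein partners and 9 lists, for the 3 comparisons; black bars are list medians and the dashed line the median of all genes tested. Rn7s6 is left out, Rnu5g lies outside the axis in CX3CL1-ct against CAMK and in CAMK against WT, and the rapid-response genes show the median farthest from 0 in the first and last panel.

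Markers of all cell types looked for were above 0 in all 12 libraries, so the tissue held hippocampal neurons, glia, dividing cells and vessels, and also choroid plexus, meninges and striatum markers. The summed FPKM of hippocampal neuron markers was 179 to 272 in WT, 189 to 198 in CAMK and 91.9 to 242 in CX3CL1-ct. Markers of dividing cells summed to 34.0 to 39.5 in WT, 22.6 to 24.6 in CAMK and 25.8 to 32.7 in CX3CL1-ct, without overlap. Of all genes tested, 3.30% did not overlap between CX3CL1-ct and CAMK, 6.04% between CX3CL1-ct and WT and 18.0% between CAMK and WT. The rapid-response genes had the same order of groups by their medians, a match picked after the values were seen. The meninges markers and the general neuron markers did not share this order. General neuron markers summed to 1174 to 1489 in WT, 1424 to 1803 in CAMK and 1340 to 1732 in CX3CL1-ct. Meninges markers summed to 18.7 to 24.7 in WT, 23.7 to 28.4 in CAMK and 28.7 to 57.2 in CX3CL1-ct. Choroid plexus markers varied widely within groups, from 300 to 2311 in WT, 99.4 to 889 in CAMK and 150 to 620 in CX3CL1-ct. Striatum markers summed to 8.75 to 83.9 in WT, 11.6 to 13.9 in CAMK and 9.48 to 51.9 in CX3CL1-ct. The part of these cell types in the differences above was not tested.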

How the data were processed

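The authors deposited FPKM per gene for each library. Per the labels' protocols, stranded total RNA libraries started from 100 ng or more, at an RNA integrity number of 7.0 or above, and were read as pairs of 100 cycles. Per the submitters' processing notes, TopHat, Bowtie, Cufflinks and Cuffdiff were used with build mm10; versions, scaling between libraries and strand use are not given in the sources used here. The table holds no counts, and depth was not estimated here. FPKM sums of the libraries lay between 552481 and 659362, with 15318 to 15861 genes at 1 FPKM or more.

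Values were taken as log2(FPKM + 1), a scale that understates changes of low genes. Of 29454 genes, 16503 reached 1 FPKM in 3 or more of the 12 libraries. limma 3.58.1 (R 4.3.3, eBayes with trend) fitted the 3 group means to all 12 libraries, with two-sided p-values, Benjamini-Hochberg adjustment across the genes tested and a threshold of 0.05. The steps were tested on simulated data. Positions and transcripts come from GENCODE M21 (mm10), which held 29258 of the gene IDs, and copies of Rn7sk were found there with BLAST+ 2.17.0 (blastn, e-value 1e-05). Tables were made in Python 3.11.15 with numpy 2.4.6 and pandas 2.3.3, and figures with matplotlib 3.10.9.

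The members, lists and alternatives were chosen with earlier results of these data known. The text names the 7 members, up to 3 genes per list with the smallest p, the genes at 0 throughout CX3CL1-ct and at 1 FPKM or more elsewhere, the 5 genes most like Rn7sk and its 3 nearest genes on each side. Copies of Rn7sk other than Gm26315, the rest of the Celf2 locus, Rny3, Nxpe3, genes that overlap a member, Rnu5g, Rnu11, Fosb and Egr2 were named after their values were seen.

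The groups share replicate numbers. As a check of pairing, each library's deviation from its group mean was correlated across genes with that of the library of the same number. The correlation was 0.236, 0.163 and 0.1003 for CAMK and WT, all over 0.1, so these were taken as pairs, from the data and not from the labels. Libraries of different numbers were not correlated, so these values have no baseline and the pairing is an assumption. For CX3CL1-ct the correlation was 0.110, -0.130 and -0.0912 against CAMK, and 0.114, -0.0622 and 0.0106 against WT, which does not pair them.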

Additional observations from a re-analysis of the deposited data

Results flagged for a closer look

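Ccnt2 in CX3CL1-ct replicate 5, at 19.6 FPKM, lay far from the other 5 libraries of its group. The gap to its neighbour was 0.704 of the group's range, above Dixon's 95% critical value for 6 libraries. The 6 protein genes were looked at in this way, and chance marks about 1 in 20 such groups. The same library had the highest summed striatum markers of its group, 51.9 FPKM. In WT the highest striatum sum, 83.9 FPKM, was in replicate 2, where Ccnt2 was at 17.9 FPKM, as in WT replicate 3. The part of striatum tissue in the value was not tested. Without CX3CL1-ct replicate 5 the count of partner genes past the threshold was 0 in all 3 comparisons.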

How the results depend on the processing

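Under 22 other settings, 0 of the 6 protein genes passed the limma threshold in any comparison; the smallest adjusted p was 0.300 between CX3CL1-ct and CAMK, 0.328 between CX3CL1-ct and WT and 0.282 between CAMK and WT, each with the replicate block. Of 132 differences per comparison, 5, 10 and 2 changed sign. With median-of-ratios scaling Cdk9 was at -0.0271 against CAMK, and Larp7 and Ccnt2 at -0.0108 and -0.0380 against WT. Scaled to genes that are not small RNA genes, these were -0.00644, -0.0204 and -0.0481. With the replicate block, where only CX3CL1-ct replicates 1 to 3 bear on the difference, Ccnt2 was at -0.0528 against WT. Leaving out 1 library at a time gave -0.0652 to 0.0804 for Cdk9 and -0.00443 to 0.126 for Hexim1 between CX3CL1-ct and CAMK. Between CX3CL1-ct and WT it gave -0.0258 to 0.0817 for Larp7, -0.0830 to 0.0461 for Ccnt2 and -0.0390 to 0.126 for Cdk9, and for Cdk9 between CAMK and WT -0.0558 to 0.117. Mepce between CX3CL1-ct and CAMK kept its sign but ran from 0.0317 without CAMK replicate 2 to 0.194 without CAMK replicate 1. The cause of these changes was not tested. Leaving Rn7sk out of both sums gave a share of small RNA genes of 41.5% in WT and 44.8% in CAMK, since Rn7sk is in the sums of these groups only.

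Counts over the whole table moved more. With the replicate block 171, 540 and 490 genes passed between CX3CL1-ct and CAMK, CX3CL1-ct and WT, and CAMK and WT, in place of 10, 75 and 59. CX3CL1-ct replicates 1 to 3 share only a number with the others. Replicates 4 to 6 were each alone in a block, so the CX3CL1-ct differences with the block rest on replicates 1 to 3. Among the list genes, in a fit added after seeing the data, the block also brought Aff3 (0.41, adjusted p = 0.0204) and Rnu11 (0.37, adjusted p = 0.0484) past the limma threshold between CX3CL1-ct and WT. With a filter of 1 FPKM in all 12 libraries 0, 23 and 34 passed, and with no filter 144 between CX3CL1-ct and WT and 123 between CAMK and WT. With only the compared groups in the fit, 38 passed between CX3CL1-ct and WT. Leaving out 1 library gave 26 to 158 there and 21 to 153 between CAMK and WT. In an alternative added after seeing the data, without genes that have a whole group at 0, 0 genes passed between CX3CL1-ct and CAMK (1051 had an unadjusted p under 0.05 with them). Beyond this, the table gives no depth, so how far a value of 0 reaches cannot be stated.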
